A study of Mus musculus with 6 samples.

Results

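The thioredoxin gene *Txn1*, the mitochondrial thioredoxin gene *Txn2*, the 6 peroxiredoxin genes *Prdx1* to *Prdx6* and the superoxide dismutase genes *Sod1* and *Sod2* were examined in primary mouse neurons. All 10 were listed, among 50508 gene symbols in the deposited files, and all 10 were above 0, as were 19504 symbols in all. *Txn1* was selected on the values described here, because its fall between the groups was the most consistent. Its difference is therefore given as a description without a test. The other 9 genes were taken by family name.

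The cultures came from postnatal day 0 C57Bl/6J pups and were transduced with a lentivirus that carries a nuclease-dead Cas9 fused to the activator VP160 under the Ef1alpha promoter, together with 1 guide. In Ctrl-dCas9A (3 libraries) the guide, sgLacZ, targets the bacterial LacZ gene, and in Kcna1-dCas9A (3 libraries) the guide, sgKcna1, targets the promoter of the mouse potassium channel gene *Kcna1*. Both groups therefore carry the activator and differ in the guide, and the Ef1alpha promoter is not restricted to neurons. The labels give hippocampus as the region, whereas the methods of the study name cortical neurons. Nothing in the labels says whether the 3 libraries of a group came from separate cultures, so that p-values measure the spread between these libraries, which may be technical. Comparing the groups shows which transcripts other than *Kcna1* differed when the activator was directed to that gene.

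Superoxide, a by-product of respiration, is converted to hydrogen peroxide by superoxide dismutases, SOD1 mainly in the cytosol and SOD2 in the mitochondrial matrix. Peroxiredoxins then reduce hydrogen peroxide through a reactive cysteine, and most of them are returned to their reduced form by thioredoxin, TXN1 in the cytosol and nucleus and TXN2 in mitochondria. Thioredoxin is reduced in turn by thioredoxin reductases with NADPH. Several of these genes are known targets of the transcription factor NRF2, which binds antioxidant response elements.

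RNA was read with a QuantSeq 3′ kit, which samples the end of each transcript. Reads of such a kit follow the number of transcripts rather than their length. The values were not divided by length here, and whether the authors did so is not given. The files hold a whole number for each gene. These numbers summed to between 999047 and 999717 per library and were taken to be per-million values that the authors rounded. The number of reads is unknown. Between 14788 and 15417 genes were above 0 per library, and Gm42418 alone held from 15.3% to 20.2% of a library. The targeted gene *Kcna1* was listed at 16, 16 and 16 in Ctrl-dCas9A, against 68, 47 and 65 in Kcna1-dCas9A (adjusted p = 0.034 from limma). This call, like all others over all genes, was lost with the replicate number as a block and with any 1 library but Ctrl-dCas9A replicate 3 left out. Neuronal markers were abundant in every library (8 genes, summed to between 6153 and 7080 in Ctrl-dCas9A and between 7246 and 8630 in Kcna1-dCas9A). That difference came from *Tubb3*, a neuronal tubulin, at 1862, 1752 and 2605 against 3855, 3221 and 4591. Without it the other 7 genes overlapped between the groups, at 4291 to 4475 against 4025 to 4302, with *Map2* and *Snap25* apart as lower and *Nefl* as higher. The 4 hippocampal markers *Prox1*, *Zbtb20*, *Wfs1* and *Grik4* were all above 0. Other cell types were present as well. Summed over 10 genes, astrocyte markers were between 961 and 1069 in Ctrl-dCas9A and between 702 and 718 in Kcna1-dCas9A. Markers of dividing cells (8 genes) were between 121 and 126 and between 71 and 75, and those of the oligodendrocyte lineage (8 genes, *Mog* at 0 in every library) between 66 and 98 and between 40 and 44. Microglia markers (10 genes, *Tmem119* and *P2ry12* at 0 in every library) were between 28 and 34 in Ctrl-dCas9A and between 58 and 79 in Kcna1-dCas9A. The sums of excitatory and inhibitory neuron markers overlapped between the groups. They were 1260 to 1407 against 1197 to 1265 for 7 excitatory genes and 279 to 312 against 269 to 317 for 8 inhibitory genes. Of these, 1 excitatory gene was apart as lower and 2 as higher, and 3 inhibitory genes as lower and 1 as higher. Over all genes 13.3% were apart as lower and 8.98% as higher. The shares were 23.9% and 15.9% of genes with a mean of at least 10. Vascular and meningeal markers (6 genes) stayed at 9 or below in sum. Apart from the neuron sum, which rested on *Tubb3*, the astrocyte, dividing-cell and oligodendrocyte sums were lower and the microglia sum higher in Kcna1-dCas9A without overlap. Of the genes above 0, 6 of 10 astrocyte, 7 of 8 dividing-cell and 4 of 7 oligodendrocyte genes were apart as lower. In the other direction, 1 oligodendrocyte gene, *Mbp*, and 4 of 8 microglia genes were apart as higher. The part of these sums in the differences described here was not tested. In such bulk RNA, fewer cells of a type and less RNA per cell cannot be told apart.

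The promoters of *Txn1*, of *Prdx1* and *Sod1*, whose windows hold an antioxidant response element core, and of *Sod2*, the mitochondrial partner of *Sod1*, are shown so that the motifs commonly searched in redox genes can be read in them. The reference table (RefSeq, build GRCm38.p6) matched 9 of the 10 genes, all but *Prdx6*. Each window ran from 250 bases before to 50 bases after the transcription start, and the 250 bases before the start are printed, 5′ to 3′ on the strand of the gene. Capitals mark matches on either strand to the antioxidant response element core TGACNNNGC, the GC box GGGCGG and the TATA box TATAAA. *Txn1* is on the minus strand at chr4:57956412-57956661, *Prdx1* on the plus strand at chr4:116685349-116685598, *Sod1* on the plus strand at chr16:90220512-90220761 and *Sod2* on the plus strand at chr17:13007589-13007838.
Txn1: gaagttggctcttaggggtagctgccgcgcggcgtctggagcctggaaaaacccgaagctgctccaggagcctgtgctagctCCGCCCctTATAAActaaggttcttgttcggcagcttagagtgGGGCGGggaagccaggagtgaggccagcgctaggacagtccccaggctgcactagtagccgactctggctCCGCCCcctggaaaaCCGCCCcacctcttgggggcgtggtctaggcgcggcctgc
Prdx1: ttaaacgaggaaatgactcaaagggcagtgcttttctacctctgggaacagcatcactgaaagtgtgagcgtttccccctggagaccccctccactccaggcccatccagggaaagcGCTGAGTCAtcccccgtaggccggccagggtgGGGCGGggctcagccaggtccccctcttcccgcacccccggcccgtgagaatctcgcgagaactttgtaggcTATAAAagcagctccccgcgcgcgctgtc
Sod1: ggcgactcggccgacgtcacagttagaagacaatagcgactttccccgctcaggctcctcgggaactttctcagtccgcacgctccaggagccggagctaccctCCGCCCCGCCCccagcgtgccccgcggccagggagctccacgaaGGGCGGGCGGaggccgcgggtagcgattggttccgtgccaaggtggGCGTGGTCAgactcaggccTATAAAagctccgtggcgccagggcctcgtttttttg
Sod2: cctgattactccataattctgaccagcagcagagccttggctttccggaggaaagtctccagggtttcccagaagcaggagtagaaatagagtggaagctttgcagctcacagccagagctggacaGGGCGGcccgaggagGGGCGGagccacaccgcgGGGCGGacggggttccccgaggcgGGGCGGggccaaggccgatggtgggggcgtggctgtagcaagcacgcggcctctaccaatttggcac

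A match to the antioxidant response element core was found in 2 of the 9 windows, those of *Prdx1* and *Sod1*, and in 12.4% of all 32851 windows of the table. In *Prdx1* the match, GCTGAGTCA on the strand of the gene, began 133 bases before the start and also contains the letters TGAGTCA of an AP-1 site. In *Sod1* it was GCGTGGTCA, which began 56 bases before the start. The *Txn1* window held 0 matches to this core, 4 GC boxes and 1 TATA box that began 160 bases before the start. A GC box was present in 9 of 9 windows, against 35.7% of all windows, and the GC content of the 9 windows was between 57.0% and 68.7%, where the median of all windows was 52.7%. GC boxes overlapped one another in *Sod1*. A TATA box was found in 4 of 9 windows (*Txn1*, *Prdx1*, *Prdx3* and *Sod1*), against 13.6% of all windows, and in *Prdx1* and *Sod1* it began 29 and 37 bases before the start. A match of letters is a description and does not show that a factor bound there.

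*Txn1* encodes cytosolic thioredoxin, a small dithiol protein that reduces peroxiredoxins, ribonucleotide reductase and many other proteins. It was listed at 211, 185 and 163 in Ctrl-dCas9A, against 67, 59 and 60 in Kcna1-dCas9A. Every Kcna1-dCas9A library lay well below the lowest control, and the groups did not overlap. The means were 186 ± 24.0 (SD, n = 3) and 62.0 ± 4.36 (SD, n = 3), a ratio of 0.333, and the difference on the log2(value + 1) scale was -1.57 (standard error 0.12). With the pattern for which it was selected, *Txn1* went from the 3rd highest of the 10 genes in Ctrl-dCas9A to the 6th in Kcna1-dCas9A. Differences on this scale understate those of genes with low values.

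*Txn2*, which encodes the mitochondrial thioredoxin, was not lower in Kcna1-dCas9A. Its values were 55, 51 and 47 in Ctrl-dCas9A and 67, 52 and 75 in Kcna1-dCas9A, so that the ranges overlapped. The difference was 0.32 (standard error 0.15, adjusted p = 0.27 by limma, Benjamini-Hochberg over all genes), with a 95% interval from -0.04 to 0.69. Without Kcna1-dCas9A replicate 3 the difference was 0.21. The ratio of *Txn1* to *Txn2* within a library, which no scaling of libraries can change, was 3.84, 3.63 and 3.47 in Ctrl-dCas9A and 1, 1.13 and 0.80 in Kcna1-dCas9A. In the control cultures the cytosolic thioredoxin transcript was thus listed well above the mitochondrial one, and in Kcna1-dCas9A cultures both were listed at about the same value. Since *Txn1* was picked for its fall, the change of this ratio is a description as well.

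**Figure D1:**
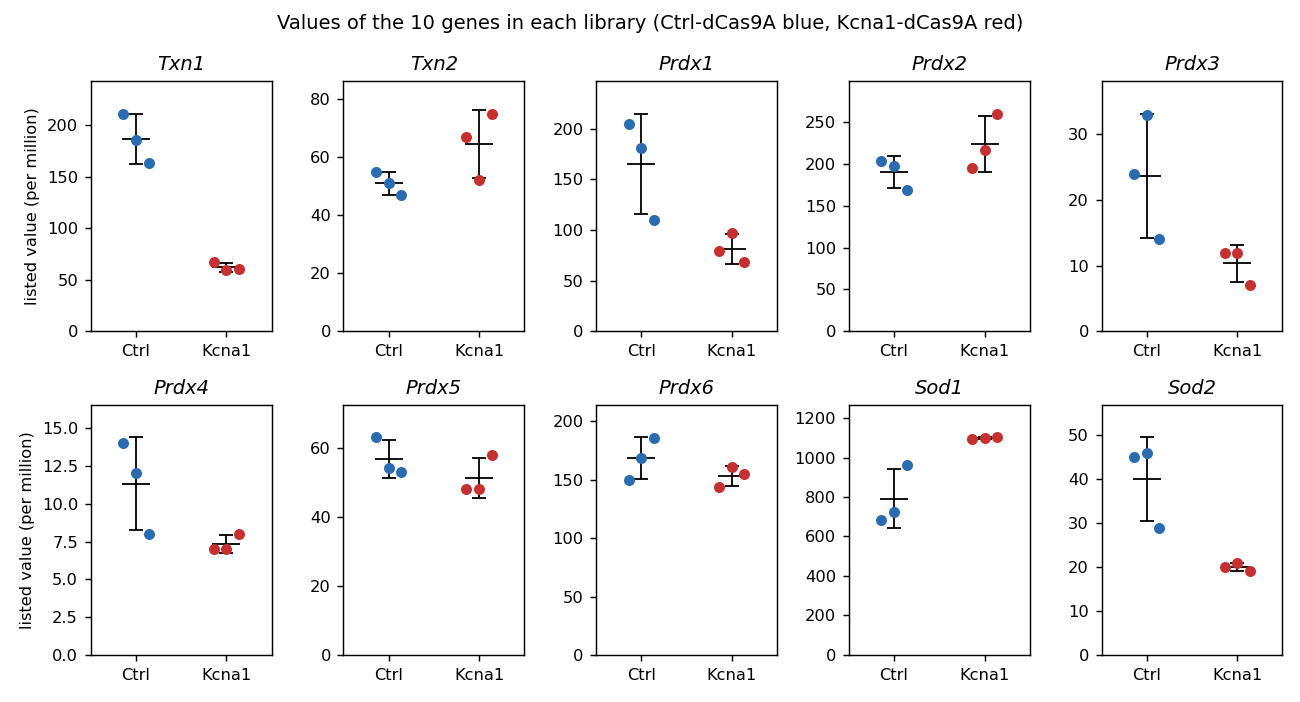
Listed value (per-million scale, linear axis from 0) of each of the 10 genes in each library. Points are libraries, with 3 Ctrl-dCas9A in blue and 3 Kcna1-dCas9A in red, and bars show the mean and SD. Txn1 ran from 163 to 211 in the controls and from 59 to 67 in Kcna1-dCas9A, while the groups overlapped for Txn2, Prdx2, Prdx4, Prdx5 and Prdx6.

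None of the 9 genes taken by family name passed an adjusted p of 0.05 from limma (0 of 9). Over all 19504 genes tested, 0.81% passed as lower (158 genes) and 0.349% as higher (68 genes). At an unadjusted p under 0.05, 4 of the 9 passed, *Prdx1*, *Prdx3* and *Sod2* as lower and *Sod1* as higher, where 13.6% of all genes passed as lower and 9.59% as higher. The groups did not overlap for these same 4 genes. Such a separation was found as lower in 13.3% and as higher in 8.98% of all genes, and in 23.9% and 15.9% of the 8050 genes whose mean was 10 or more, so that 3 lower and 1 higher of 9 are not far from the background of well expressed genes. For 3 libraries against 3, the smallest p that a two-sided exact permutation test can give is 0.1, which *Prdx1*, *Prdx3*, *Sod1* and *Sod2* reached, as any gene whose groups do not overlap must. The median difference of the 9 genes was -0.14, against -0.02 over all genes tested. The calls depended on the scaling. After median-of-ratios rescaling 3 of the 9 passed, *Prdx1* and *Sod2* as lower and *Sod1* as higher, where 3.89% of all genes passed as lower and 4.94% as higher.

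**Figure D2:**
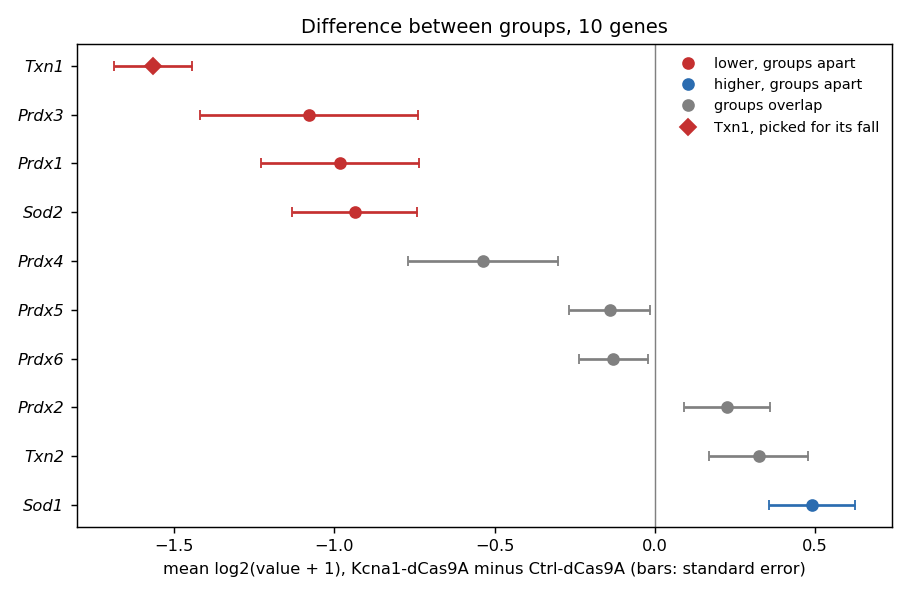
Difference of the mean log2(value + 1), Kcna1-dCas9A minus Ctrl-dCas9A, for each gene, with bars of 1 standard error from limma. Colours mark whether the 3 libraries of each group were apart (red lower, blue higher) or overlapped (grey). Txn1, the diamond, was picked for its fall and lies at -1.57, and Sod1 lies at 0.49.

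Of the 6 peroxiredoxins, *Prdx1* and *Prdx3* were apart between the groups as lower, as were 13.3% of all genes and 23.9% of those with a mean of at least 10, and neither passed the adjusted threshold. *Prdx1*, a cytosolic typical 2-cysteine peroxiredoxin, was listed at 205, 181 and 110 in Ctrl-dCas9A, against 79, 97 and 68 in Kcna1-dCas9A. The groups did not overlap, but Ctrl-dCas9A replicate 3 lay closer to the Kcna1-dCas9A libraries than to the other controls. The means were 165 ± 49.4 and 81.3 ± 14.6 (SD, n = 3 each), a ratio of 0.492, with a difference of -0.98 (standard error 0.25, adjusted p = 0.070 from limma). Without Ctrl-dCas9A replicate 3 the limma difference was -1.25 (adjusted p = 0.024), and with any other library left out it was between -1.11 and -0.80 (adjusted p between 0.17 and 0.26). Leaving out the control nearest to the other group enlarges a difference by construction.

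*Prdx3*, the peroxiredoxin of the mitochondrial matrix, was listed at 24, 33 and 14 and at 12, 12 and 7. Its lowest control and its highest Kcna1-dCas9A value differed by a listed value of 2, and the difference was -1.08 (standard error 0.34, adjusted p = 0.12 from limma). Without Ctrl-dCas9A replicate 3 the limma difference was -1.40 (adjusted p = 0.047), and with any other library left out between -1.20 and -0.81 (adjusted p between 0.23 and 0.34). *Prdx4*, which acts in the endoplasmic reticulum, was the lowest of the 10 genes at 14, 12 and 8 in Ctrl-dCas9A, against 7, 7 and 8 in Kcna1-dCas9A. The groups met at 8, and the difference was -0.54 (standard error 0.23, adjusted p = 0.22 from limma).

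*Prdx2*, the other abundant cytosolic 2-cysteine peroxiredoxin and one that is prominent in neurons, was listed at 204, 198 and 169 in Ctrl-dCas9A, against 195, 216 and 260 in Kcna1-dCas9A. The ranges overlapped, with a difference of 0.23 (standard error 0.13, adjusted p = 0.35 from limma, 95% interval -0.09 to 0.54), and of 0.11 without Kcna1-dCas9A replicate 3 and 0.14 without Ctrl-dCas9A replicate 3. The ratio of *Prdx1* to *Prdx2* within a library was 1, 0.914 and 0.651 in Ctrl-dCas9A and 0.405, 0.449 and 0.262 in Kcna1-dCas9A. *Prdx1* made up from 20.4% to 31.1% of the summed peroxiredoxin values in the controls and from 12.2% to 17.9% in Kcna1-dCas9A, and *Prdx2* from 30.6% to 31.3% and from 39.9% to 46.8%. The summed values of the 6 peroxiredoxins overlapped between the groups, at 660, 647 and 540 against 485, 541 and 556.

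The remaining peroxiredoxins were listed at close values in both groups. *Prdx5*, an atypical peroxiredoxin found in mitochondria, peroxisomes and cytosol, was at 63, 54 and 53 and at 48, 48 and 58 (difference -0.14, 95% interval -0.44 to 0.16). *Prdx6*, a 1-cysteine peroxiredoxin that relies on glutathione and not on thioredoxin and is enriched in astrocytes, was at 150, 169 and 186 and at 144, 161 and 155 (difference -0.13, 95% interval -0.38 to 0.12). Both intervals leave room for a difference of either sign. The astrocyte markers *Aqp4* (53, 54 and 39 against 18, 17 and 17), *Aldoc* (170, 168 and 160 against 117, 112 and 112) and *Sox9* (235, 214 and 210 against 155, 141 and 151) passed the threshold as lower in the same libraries, each with an adjusted p of 0.049 to 0.050 from limma. They are 3 of 10 astrocyte markers, of which 6 were apart as lower, where 0.81% of all genes passed as lower and 13.3% of all genes, or 23.9% of those with a mean of at least 10, were apart as lower, while *Gfap* (difference -0.02), *Aldh1l1* (-0.01), *Fgfr3* (-0.27) and *S100b* (0.32) overlapped between the groups.

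The superoxide dismutases differed between the groups with opposite signs, neither past the adjusted threshold. *Sod1*, the copper-zinc enzyme, was the highest of the 10 genes in every library, at 684, 726 and 961 in Ctrl-dCas9A, against 1094, 1100 and 1102 in Kcna1-dCas9A. The Kcna1-dCas9A libraries lay within 8 of each other, and all 3 were above every control. The means were 790 ± 149 and 1099 ± 4.16 (SD, n = 3 each), a ratio of 1.39, with a difference of 0.49 (standard error 0.13, adjusted p = 0.085 from limma). *Sod2*, the manganese enzyme of mitochondria, was listed at 45, 46 and 29 in Ctrl-dCas9A, against 20, 21 and 19 in Kcna1-dCas9A. Its groups did not overlap, and its mean was 40 ± 9.54 against 20 ± 1 (SD, n = 3 each), with a difference of -0.94 (standard error 0.19, adjusted p = 0.056 from limma). In both genes the control nearest to Kcna1-dCas9A was replicate 3, without which the differences were 0.64 and -1.15, both with an adjusted p of 0.017 from limma. Without that library 2711 of the 19122 genes tested passed, and leaving out the nearest control enlarges a difference by construction. With any other library left out, the difference of *Sod1* was between 0.39 and 0.49 (adjusted p from limma between 0.22 and 0.27) and that of *Sod2* between -0.97 and -0.82 (adjusted p from limma between 0.15 and 0.19). *Sod2* stood at 6.58%, 6.34% and 3.02% of *Sod1* in Ctrl-dCas9A, against 1.83%, 1.91% and 1.72% in Kcna1-dCas9A.

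Summed over the 10 genes, the values were 1655, 1655 and 1740 in Ctrl-dCas9A and 1733, 1773 and 1812 in Kcna1-dCas9A, so that the ranges overlapped. *Sod1* made up 41.3%, 43.9% and 55.2% of this sum in the controls and 63.1%, 62.0% and 60.8% in Kcna1-dCas9A, while *Txn1* made up 12.8%, 11.2% and 9.37% and then 3.87%, 3.33% and 3.31%. Without *Sod1* the sum was 971, 929 and 779 in the controls and 639, 673 and 710 in Kcna1-dCas9A. That sum still holds *Txn1*, which was picked for its fall, so its separation is no result about the other genes. The sums of the 6 peroxiredoxins alone overlapped, at 660, 647 and 540 against 485, 541 and 556.

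**Figure D3:**
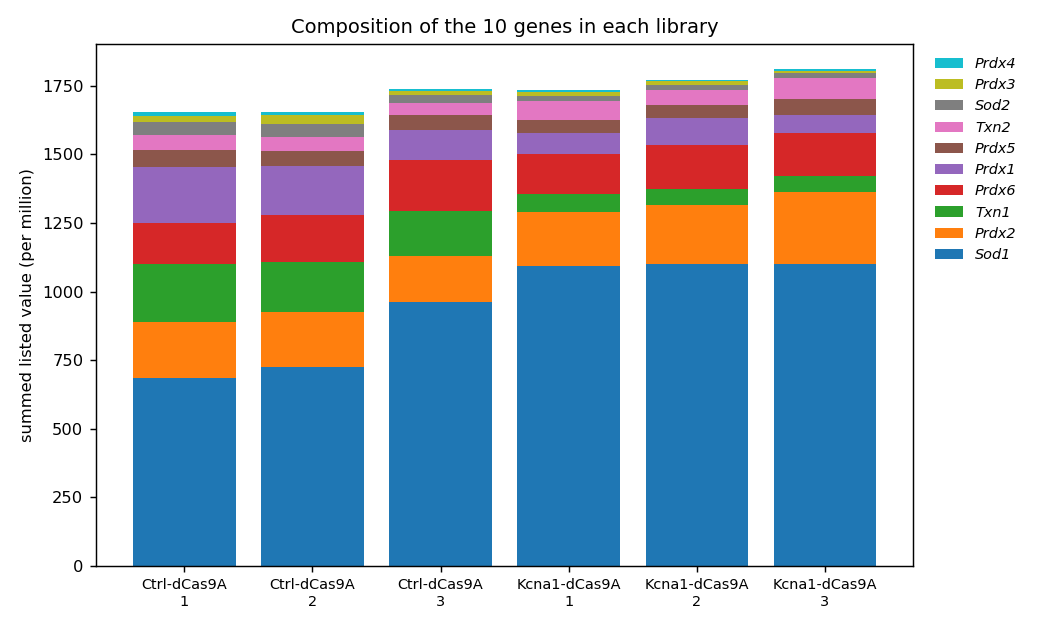
Summed listed values (per-million scale) of the 10 genes in each library, stacked by gene. The 6 bars reach between 1655 and 1812, while the Sod1 segment is between 684 and 961 in the controls and between 1094 and 1102 in Kcna1-dCas9A.

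Comparing genes by their listed values takes these as not divided by length. Ordered by the mean listed value, the genes in Ctrl-dCas9A, from the highest, were *Sod1*, *Prdx2*, *Txn1*, *Prdx6*, *Prdx1*, *Prdx5*, *Txn2*, *Sod2*, *Prdx3* and *Prdx4*. Only *Sod1* from *Prdx2*, *Prdx1* from *Prdx5* and *Txn2* from *Sod2* were neighbours whose libraries did not overlap. In Kcna1-dCas9A the order was *Sod1*, *Prdx2*, *Prdx6*, *Prdx1*, *Txn2*, *Txn1*, *Prdx5*, *Sod2*, *Prdx3* and *Prdx4*. There, *Prdx1* and *Txn2*, *Txn2* and *Txn1*, and *Prdx3* and *Prdx4* overlapped, whereas the other neighbours except *Txn1* and *Prdx5*, which were 1 apart at 59 and 58, were clearly apart. Copies and relatives named after these genes were nearly empty. Txn-ps1 and *Sod3*, the gene of the extracellular superoxide dismutase, were listed at 1 in a single Ctrl-dCas9A library and at 0 elsewhere, and Prdx6b, Prdx6-ps2 and Prdx2-rs3 at 0 in all 6. How the counting treated reads shared with such copies is not given in the sources used here.

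The 5 genes whose pattern over the 6 libraries was most like that of *Txn1* were found by the root mean square difference of log2(value + 1), each gene centred on its own mean, among 3263 genes whose mean was 50 or more. They were *Usmg5* (0.12), which encodes a small subunit of ATP synthase, *Ncs1* (0.13), a neuronal calcium sensor, *Tmeff1* (0.14), a transmembrane protein, *Itm2c* (0.18), a membrane protein of the BRICHOS family, and *Capzb* (0.18), the beta subunit of the actin capping protein. *Usmg5* was listed at 90, 83 and 74 and at 34, 32 and 29, and *Capzb* at 356, 372 and 241 and at 142, 123 and 113. By the same measure the nearest of the other 9 genes were *Sod2* (0.35) and *Prdx1* (0.38), and the farthest was *Sod1* (1.06).

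The remaining redox genes were taken from 5 lists of 58 genes in all, of which 58 were above 0. In the fit across all genes 2 of the 58 passed as lower and 0 as higher, where 0.81% and 0.349% of all genes did. The groups did not overlap for 14 lower and 3 higher genes of the 58, where 23.9% and 15.9% of the genes with a mean of at least 10, and 13.3% and 8.98% of all genes, were apart in these directions. Of the 35 listed genes with a mean of at least 10, 10 were apart as lower and 3 as higher. The median difference was -0.29, against -0.02 over all genes and -0.06 over the genes with a mean of at least 10. Both genes that passed belong to the glutathione system, which works in parallel with thioredoxin. *Gsr*, glutathione reductase, was listed at 25, 21 and 16 in Ctrl-dCas9A, against 7, 8 and 5 in Kcna1-dCas9A (difference -1.5, standard error 0.24, adjusted p = 0.0496 from limma). *Mgst3*, a microsomal glutathione S-transferase, was listed at 15, 12 and 9 and at 3, 3 and 4 (difference -1.57, standard error 0.25, adjusted p = 0.0496 from limma). Both lie just inside the threshold, at low values. Neither passed with the replicate number as a block or without any one library other than Ctrl-dCas9A replicate 3, and *Gsr* did not pass without the intensity trend of the fit.

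Of the 17 genes of the glutathione system, 14 had a difference below 0 (median -0.42), and the share of all genes below 0 was not counted. Some of the 17 lie near 0, such as *Gpx3* (2, 0 and 0 against 1, 1 and 1) and *Gstp1* (2, 1 and 1 against 0, 1 and 0), where a sign says little. The 2 highest that did not pass were *Gpx1*, a glutathione peroxidase, at 46, 55 and 48 against 32, 37 and 35, and *Gclm*, the modifier subunit of glutamate-cysteine ligase, at 56, 50 and 41 against 47, 24 and 33. Of the 16 thioredoxin reductases, inhibitors and relatives 0 passed (median -0.14). Their highest were the glutaredoxins *Glrx3*, at 138, 138 and 123 against 141, 154 and 152, and *Glrx5*, at 125, 133 and 133 against 121, 134 and 110. *Txnrd1*, which reduces TXN1, and *Txnip*, which binds and inhibits it, were chosen after their values were seen. *Txnrd1* was at 102, 93 and 101 against 97, 77 and 82, and *Txnip* at 13, 18 and 4 against 4, 2 and 1, where the groups met at 4. The reductase of *Txn1* was thus listed at overlapping values in the 2 groups.

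Of the 9 genes of the NRF2 pathway and its classical targets 0 passed, with 5 differences below 0 and 4 above (median -0.15). *Fth1*, the ferritin heavy chain, was at 533, 550 and 324 against 298, 332 and 317, so that Ctrl-dCas9A replicate 3 lay within the Kcna1-dCas9A range. *Keap1*, which holds NRF2 in check, was at 102, 114 and 109 against 123, 117 and 118. Of 8 genes of NADPH supply 0 passed (median -0.32). Their highest were *Tkt*, transketolase, at 262, 271 and 320 against 367, 338 and 475, and *Taldo1*, transaldolase, at 244, 260 and 204 against 181, 219 and 192. Of the 8 other superoxide, peroxide and methionine sulfoxide enzymes 0 passed (median -0.34). *Park7* was at 102, 100 and 88 against 106, 86 and 123, and *Msra*, a methionine sulfoxide reductase, at 62, 54 and 48 against 44, 41 and 42.

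**Figure D4:**
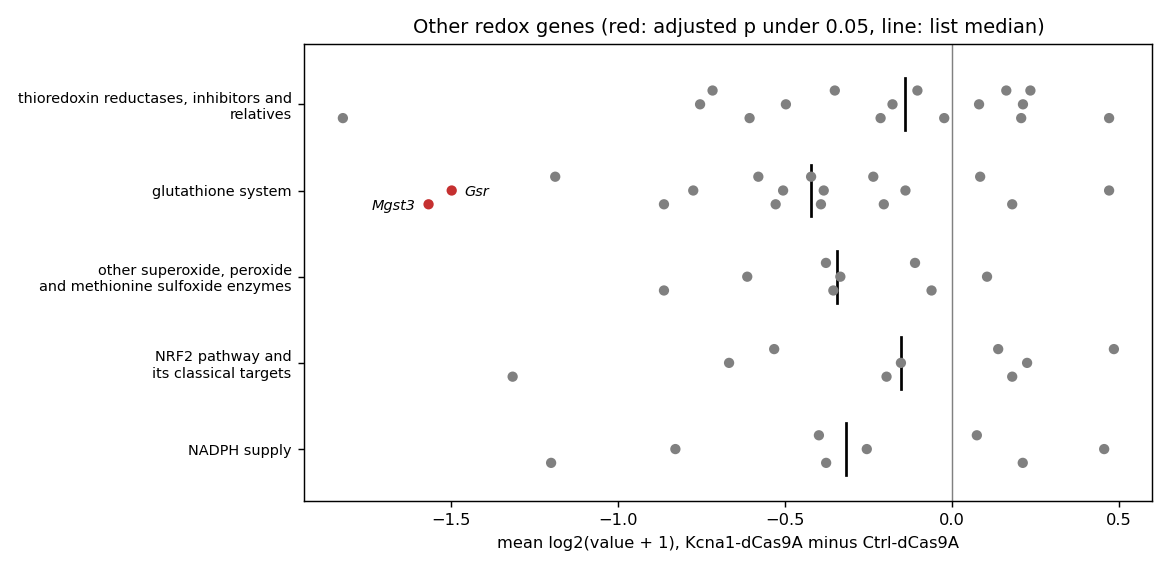
Difference of the mean log2(value + 1), Kcna1-dCas9A minus Ctrl-dCas9A, for each of 58 genes in 5 redox lists. Each point is a gene, black lines are list medians (from -0.42 to -0.14), and the 2 red points, Gsr and Mgst3, passed an adjusted p of 0.05 from limma.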

How the data were processed

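RNA of 6 libraries, 3 per group by the sample labels, was read with a QuantSeq 3′ kit. The study's methods name Bowtie2 and NCBI37/mm9 for these reads, whereas the submitters' processing notes list STAR 2.7, featureCounts, DESeq2 and mm10. The deposited files hold a whole-number score per gene without a header, taken from the totals to be per-million values that the authors rounded. The authors' scaling is not given in the sources used here, and the read depth is unknown, so that no counting intervals are given.

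Genes listed above 0 somewhere (19504) entered limma 3.58.1 in R 4.3.3 (lmFit, eBayes with an intensity trend) on log2(value + 1). The group was the only factor, with Benjamini-Hochberg adjustment over all genes and a threshold of 0.05. The fit was tested on simulated data. Genes were named by a rule: the 10 genes, *Kcna1*, redox genes past the threshold, the 2 highest others of each list, copies named after the 10 genes, and the 5 genes most like *Txn1*. *Txnrd1*, *Txnip*, *Gpx3*, *Gstp1*, marker genes with their values and *Gm42418* lie outside it. So do the thioredoxin-domain genes, *Idh1*, *Ftl1* and Ftl1-ps1 given under the other observations. The genes and lists were chosen with earlier results of these data known. Replicate numbers come from the labels, and libraries with the same number correlated in their deviations from the group means at 0.01, 0.11 and 0.15 over genes with a mean of at least 10, so that the numbers were not taken to pair the libraries. Promoters were searched with Python 3.11.15. Protein sequences were not used here. DESeq2 and edgeR were not run, since they need counts.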

Additional observations from a re-analysis of the deposited data

How the results depend on the processing

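The 15 alternatives were 2 low-value filters, another pseudocount, 3 rescalings, the replicate block, 2 variance models and each library left out. Of these, 5 (filters, block and variance models) cannot change a difference. Under the other 10, 0 of 90 values for the 9 genes other than *Txn1* reversed direction. The difference of *Txn1* stayed between -1.66 and -1.45, and those of *Prdx5* and *Prdx6*, the smallest, between -0.23 and -0.03 and between -0.21 and -0.01. The 2 genes *Prdx3* and *Prdx4* have no value with the filter on 10 in every library.

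How many genes passed varied with the settings; the cause was not tested. Over all genes it was 226 of 19504 tested as reported. With a mean of at least 1 it was 1543 of 13604, and at 10 or more in every library 1946 of 7048. It was 627 with a pseudocount of 0.1, 1721 with median-of-ratios and 868 with upper-quartile scaling. It was 1768 without Gm42418, 2884 with a robust variance and 0 with the replicate block. In the same order, of the 9 genes other than *Txn1*, 2, 3, 0, 3, 1, 4, 4 and 0 passed, against 0 as reported, and of the 58 other redox genes 6, 8, 2, 7, 4, 7, 14 and 0 passed, against 2 as reported. The filters left 52 and 31 of the 58 to test. Without the intensity trend these numbers were 201, 0 and 1. With each library left out they ranged from 0 to 2711, from 0 to 5 and from 0 to 13, and were above 0 only without Ctrl-dCas9A replicate 3, where *Prdx1*, *Prdx3*, *Prdx4* and *Sod2* passed as lower and *Sod1* as higher. The unknown depth is a limit for low genes such as *Prdx4*.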

Other observations

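Other genes with a thioredoxin domain or name, chosen after their values were seen, went in both directions. *Txndc15* was listed at 102, 85 and 135 in Ctrl-dCas9A, against 173, 160 and 203 in Kcna1-dCas9A, and *Txnl4a* at 26, 27 and 30 and at 38, 33 and 49. *Txndc5*, a protein disulfide isomerase of the endoplasmic reticulum, was listed at 9, 7 and 5 and at 2, 2 and 2, and *Txndc17*, a cytosolic relative of thioredoxin, at 32, 36 and 32 and at 25, 23 and 22. The groups did not overlap for these 4 genes or for *Txndc12*, 3 of 12 such genes as lower and 2 as higher, where 13.3% and 8.98% of all genes, and 23.9% and 15.9% of those with a mean of at least 10, were apart in these directions. *Txndc5* has a mean below 10. The other 7 overlapped. Of the 4 genes given, none passed an adjusted p of 0.05 from limma (0.065 for *Txndc15*, 0.13 for *Txnl4a*, 0.053 for *Txndc5* and 0.068 for *Txndc17*). *Txndc9* was listed at 82, 68 and 66 and at 73, 70 and 73.

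*Idh1*, the cytosolic NADPH-forming isocitrate dehydrogenase, and *Ftl1*, the ferritin light chain, were also named after their values were seen. *Idh1* was listed at 276, 258 and 154 and at 109, 96 and 85 (difference -1.20, adjusted p = 0.053 from limma), and *Ftl1* at 13, 10 and 7 and at 4, 3 and 3 (difference -1.31, adjusted p = 0.056 from limma). The copy Ftl1-ps1 was listed at 8, 7 and 4 and at 1, 1 and 1 (adjusted p = 0.0496 from limma), and reads that both could hold make these low values uncertain.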
